A study of Mus musculus with 4 samples.

Results

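Heme oxygenase 1 (Hmox1) and lipocalin 2 (Lcn2) were followed here in the heart ventricles of mice with mineralocorticoid excess. The 2 genes were selected on the measured log ratios themselves, as genes high on every array, together with their known link to heme, iron and tissue injury. Their log ratios are therefore given as a description with no test. Each gene was represented by 1 clone that carried its symbol and no other, 2 of 16471 clones and 2 of 8106 named genes.

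The high-salt group was 3 mice given 1% NaCl to drink for 5 weeks, and the low-salt group was 3 mice given plain tap water. All 6 were males aged 12 to 13 weeks, with 1 kidney removed, treated with the mineralocorticoid deoxycorticosterone acetate (DOCA) and fed 0.5 mg Na per g of food. Their strain, 129Ola/C57BL/6J, was a wild-type backcross of N5–6, described as 1-renin. The hormone and the missing kidney were common to both groups, so the contrast is the salt in the water. RNA of right and left ventricles with septum from 1 high-salt and 1 low-salt mouse shared each of 4 printed cDNA arrays, with high salt in Cy3 on arrays 1 and 2 and in Cy5 on arrays 3 and 4. Arrays 2 and 4 held the same pair of mice with the dyes exchanged and were averaged as pair 2, so n was 3 pairs, with array 1 as pair 1 and array 3 as pair 3.

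The enzyme made by Hmox1 opens the heme ring and releases iron, carbon monoxide and biliverdin. The gene has low activity in unstressed heart and is induced by heme, oxidants and inflammation, mainly through the activator Nrf2 (gene Nfe2l2) and loss of the repressor Bach1. Lcn2 encodes a small secreted protein that binds iron carried by siderophores. It is stored in neutrophil granules and is also made by injured epithelium, cardiac and vascular cells, where NF-kappaB, C/EBP factors and the mineralocorticoid receptor are known to raise it.

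The 250 bases before the RefSeq start of Lcn2 (GRCm38.p6, chr2:32387740-32387989, minus strand, printed 5′ to 3′ along the gene) are shown because steroid and inflammation genes are set beside Lcn2 further on.
Lcn2: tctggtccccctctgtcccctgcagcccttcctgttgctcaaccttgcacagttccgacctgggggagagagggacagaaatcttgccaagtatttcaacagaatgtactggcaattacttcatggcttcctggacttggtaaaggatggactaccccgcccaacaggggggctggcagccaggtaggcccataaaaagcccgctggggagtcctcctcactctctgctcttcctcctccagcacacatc

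Both strands of this window were searched for 6 motifs, none of which matched, so that no letter is in capitals. The motifs were the antioxidant response element core TGACNNNGC, found in 10.2% of 32851 RefSeq windows of this length, the steroid receptor core TGTTCT (16.1%) and the STAT motif TTCNNNGAA (7.0%). The others were the E-box CACGTG (6.0%), the TATA box TATAAA (12.4%) and an NF-kappaB motif, GGG-NN-TTTCC (1.4%). Other spellings of the NF-kappaB motif and motifs of C/EBP factors were not searched. A search by letters is no measurement of binding, and these arrays did not measure the promoter.

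Values are the log ratios the authors deposited, read as log2 of high over low salt. Base 2 is an assumption. The direction is likely from the array titles and not settled. Across 16471 clones arrays of opposite dye orientation correlated at r = -0.34, -0.37, -0.08 and -0.07 (arrays 1 and 3, 2 and 3, 1 and 4, 2 and 4), against 0.57 and 0.43 for arrays of 1 orientation. Whether the table had been turned for the dye exchange cannot be settled from it. If arrays 1 and 2 had to be turned, both genes would lie below 0 on these and above 0 on arrays 3 and 4, with means of -0.27 ± 1.72 for Hmox1 and -0.10 ± 1.15 for Lcn2 (SD, n = 3 pairs), and no direction with salt could be given for either. The ratios carry no absolute level, so neither the abundance of these transcripts nor the cell types of the tissue could be checked from them. In whole ventricle, more cells of a type and more RNA per cell cannot be told apart.

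Hmox1 had log2 ratios of 2.08, 1.98, 1.34 and 1.85 on arrays 1 to 4. All 4 values lay above 0 and within 0.74 of each other, and array 3 was the lowest. Over the 3 pairs the values were 2.08, 1.91 and 1.34, with a mean of 1.78 ± 0.39 (SD, n = 3 pairs), which is 3.43-fold on the linear scale if the base is 2. By pair the fold was 4.23, 3.76 and 2.53. This was the highest mean of the 8106 genes, with clones averaged per gene. Single clones of the collagen gene Col3a1 stood higher, at 1.98 and 1.98, while the average over its 4 clones was 1.04. On the single arrays Hmox1 ranked 10, 20, 7 and 5 from the top, so it led none of them, and its first place came from being high on each.

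Lcn2 had log2 ratios of 1.11, 1.98, 1.15 and 1.28 on arrays 1 to 4. Arrays 1, 3 and 4 lay close together and array 2 stood apart, higher by 0.69 than array 4, which held the same mice. The pair values were 1.11, 1.63 and 1.15, with a mean of 1.30 ± 0.29 (SD, n = 3 pairs), 2.46-fold if the base is 2. It ranked 5 by its mean, with clones averaged per gene. With clone medians instead, the collagen gene Col1a2 stood at 1.38, above Lcn2. On array 1 Lcn2 ranked 144 from the top, and on arrays 2 to 4 it ranked 21, 12 and 18.

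**Figure D1:**
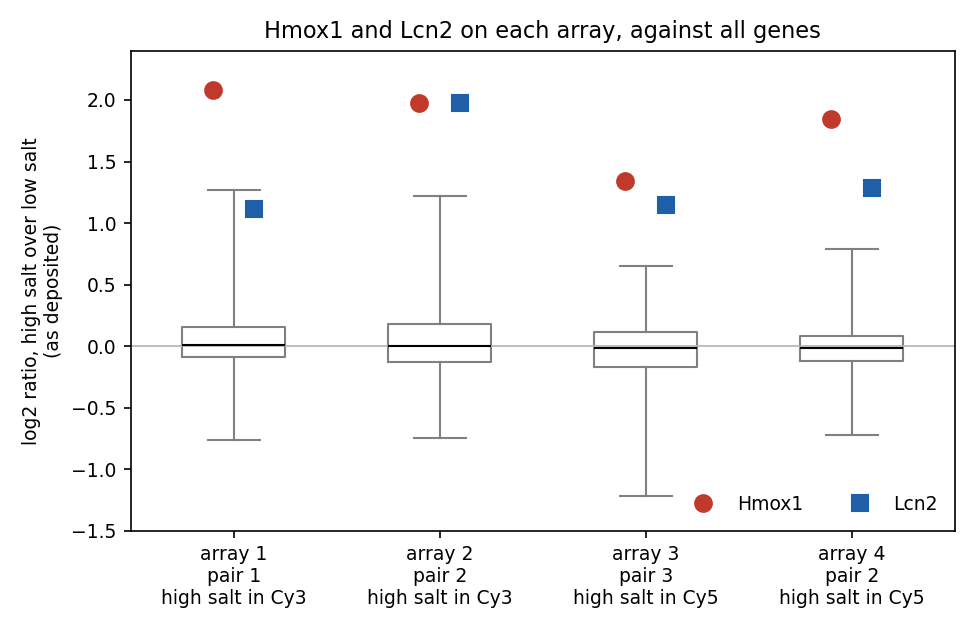
Log2 ratio of high over low salt (vertical axis, as deposited) for Hmox1 (circles) and Lcn2 (squares) on each of the 4 arrays, against all 8106 genes (boxes give the quartiles and median, whiskers the percentiles 1 to 99). Hmox1 lies above the upper whisker on every array, and Lcn2 lies above it on arrays 2 to 4 and below it on array 1, at 1.11 against 1.27.

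Of the 8106 genes, with clones averaged per gene, 14 had a mean log2 ratio of 1 or more. Of these, Hmox1 and Lcn2 were the 2 with every array at 1 or more. Among the other 12, Setdb2, a SET domain protein, came closest with a lowest array of 0.92, followed by Fkbp5, a steroid-induced cochaperone, with 0.87. The SDs of Hmox1 and Lcn2 over the pairs, 0.39 and 0.29, may be set beside those of genes of this size. The 26 genes with a mean of 1 or more in either direction had a median SD of 0.51, against 0.15 for all genes. These places describe how the 2 genes were picked and support nothing further.

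The genes were not always in step. Hmox1 exceeded Lcn2 by 0.97 on the log2 scale in pair 1, by 0.28 in pair 2 and by 0.19 in pair 3. In pair 2 the gap itself depended on the array. It was 0.0039 on array 2 and 0.56 on array 4, from the same RNA.

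The dye exchange bears on both values. For Hmox1 the mean log2 ratio was 2.03 with high salt in Cy3 and 1.59 with high salt in Cy5. The difference of 0.44 lies above the median absolute difference of 0.19 over all genes, and 22.9% of genes differed by more. For Lcn2 the means were 1.54 and 1.22, a difference of 0.33, and 31.6% of genes differed by more. Within the same mice, array 4 minus array 2 was -0.13 for Hmox1, a difference that 62.9% of genes exceeded in size, and -0.69 for Lcn2, which 10.6% exceeded. For Lcn2 the arrays of the same mice thus differed by more than the pairs did from each other. Taken from array 4 alone, pair 2 gave Lcn2 a mean of 1.18 ± 0.090, and from array 2 alone 1.41 ± 0.49 (SD, n = 3 pairs).

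**Figure D2:**
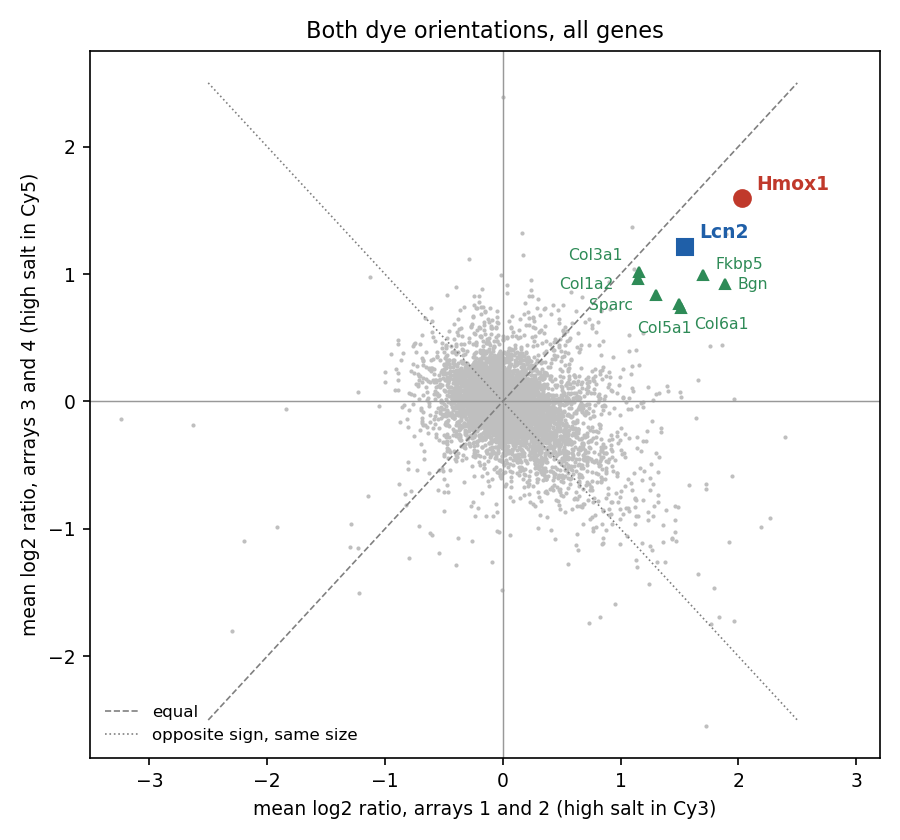
Mean log2 ratio of arrays 1 and 2 (high salt in Cy3, horizontal axis) against that of arrays 3 and 4 (high salt in Cy5, vertical axis) for 8106 genes (dots), with Hmox1, Lcn2 and the genes nearest to them (triangles). The cloud stretches along the dotted line of opposite signs, while Hmox1 (2.03 and 1.59) and Lcn2 (1.54 and 1.22) lie at the upper right near the dashed line of equal values.

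The place of the spots was also examined by feature number, taking features as numbered block by block. The layout within a block was not given, so clones next in number need not be neighbours on the slide. The 16 clones next in number to Hmox1, 8 on each side, had median log2 ratios of 0.30, 0.32, -0.14 and -0.13 on arrays 1 to 4. Their highest values were 1.31, 1.38, 0.43 and 0.17. Hmox1 was above each of them on every array. The 16 clones next in number to Lcn2 had medians of 0.036, -0.013, 0.0048 and 0.051. Their highest values of 0.43, 0.98, 0.34 and 0.86 stayed below Lcn2. Both genes were picked as high on every array, so standing above these clones tests no effect of place. With each print block centred on its own median, Hmox1 stood at 1.78 ± 0.38 and Lcn2 at 1.30 ± 0.30 (SD, n = 3 pairs).

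The high-salt hearts weighed 131, 128 and 120 mg in pairs 1 to 3, against 109, 107 and 108 mg for the low-salt hearts. The differences were 22, 21 and 12 mg. As heart weight per body weight the differences were closer together, at 0.82, 0.84 and 0.7 mg per g. Pair 3 had the smallest weight difference and the lowest Hmox1 ratio, 1.34, while Lcn2 was lowest in pair 1, at 1.11. Over 3 points no relation was computed.

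The genes whose 4 array values came closest to each member were looked up by the root mean square difference of the log2 ratios over the 4 arrays. With clones averaged per gene, Hmox1 and Lcn2 differed from each other by 0.57. This was less than any other gene average differed from Hmox1, where the median over genes was 1.84. Next to Hmox1 came Fkbp5 at a distance of 0.59, then Bgn (0.72), the proteoglycan biglycan, Col6a1 (0.72), a collagen VI chain, Col3a1 (0.75), a fibrillar collagen chain, and Sparc (0.75), a collagen-binding matrix protein. Nearest to Lcn2 were Col5a1 (0.34), a collagen V chain, Col3a1 (0.39), Col6a1 (0.43), Col1a2 (0.44), a type I collagen chain, and Sparc (0.52). As 14 genes in all had a mean of 1 or more, few genes could come near either member. Col3a1, Col1a2 and Sparc are averages of unlike clones. Those ranged from 0.014 to 1.98 over the 4 clones of Col3a1 and from 0.0058 to 1.60 over the 3 clones of Col1a2. The 3 clones of Sparc ranged from 0.50 to 1.50. A single Col1a2 clone had 1.84, 2.13, 1.03 and 1.73 on arrays 1 to 4, nearer to Hmox1 than Lcn2 was. The order of nearness thus holds for gene averages only, and distances of single clones were not computed.

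The other measured genes of the heme and iron pathway did not share the size of Hmox1. In a limma fit over all 8106 genes (log ratios of 3 pairs against 0, Benjamini-Hochberg), 0 genes passed an adjusted p of 0.05, 0% of those tested, and the smallest adjusted p was 0.640. At an unadjusted p under 0.05, 2.81% of genes lay above 0 and 2.63% below. On all 4 arrays 7.01% of genes were above 0 and 7.75% below, and the median of all gene means was -0.0002. These shares are the background for the lists that follow, whose counts leave out Hmox1 and Lcn2. Over all 15 lists 116 genes other than these were measured, of which 0 passed, 8 lay above and 15 below 0 at an unadjusted p under 0.05.

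Of the other genes of heme breakdown, 3 were measured, with a median of 0.014. Hmox2, the constitutive heme oxygenase, had log2 ratios of -0.14, -0.0039, 0.12 and 0.13 on arrays 1 to 4 and a mean of 0.014 ± 0.14 (SD, n = 3 pairs; 2 clones). Its values lay on both sides of 0 and split by dye orientation, though array 2 was close to 0. Only 1 clone split in this way, with -0.19, -0.036, 0.22 and 0.30. The other had -0.095, 0.028, 0.029 and -0.045. Blvrb, a biliverdin reductase that acts downstream of the oxygenases, was at -0.15 ± 0.21, and Cyb5r3, a cytochrome b5 reductase, at 0.045 ± 0.20.

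Of 10 measured heme synthesis genes, 5 were above and 5 below 0, with a median of -0.028. On all 4 arrays 3 were below 0 (30%, against 7.75% of all genes) and 1 above (10%, against 7.01%). Alas1, the first and rate-limiting enzyme of heme synthesis outside red cells, was the lowest. It had -0.36, -0.35, -0.47 and -0.23 on arrays 1 to 4, a mean of -0.37 ± 0.091 (SD, n = 3 pairs), an unadjusted p of 0.0061 by limma and an adjusted p of 0.771. All 4 arrays were on 1 side of 0, the opposite side to Hmox1, and with arrays 1 and 2 turned the mean was -0.02. Alad, the next enzyme, was at -0.19 ± 0.054, but its 2 clones stood at -0.48 and 0.096. Uros, a uroporphyrinogen synthase, was at -0.16 ± 0.17. Cpox, which oxidises coproporphyrinogen, was above 0 on all arrays at 0.45 ± 0.35, with 0.86 in pair 1 against 0.25 and 0.24 in pairs 2 and 3. Tspo, a porphyrin- and cholesterol-binding protein of the outer mitochondrial membrane, was at 0.28 ± 0.33, or 0.13 without pair 1. It had 0.59 and 0.80 on arrays 1 and 2 and -0.067 and -0.14 on arrays 3 and 4, split by dye orientation. Ppox, the following oxidase, stood at 1.03 and 0.93 on arrays 1 and 2 and at -0.85 and -0.73 on arrays 3 and 4, a split by dye orientation that Hmox1 did not have. Urod, which decarboxylates uroporphyrinogen, was at -0.21 ± 0.33, and Fech, which inserts the iron, Alas2, the red cell isoform of Alas1, and Slc25a37, a mitochondrial iron importer, lay between -0.060 and 0.017.

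Of 13 measured genes of iron uptake, storage, export and sensing, 4 were above and 9 below 0, with a median of -0.049 and all means between -0.26 and 0.22. Ferritin, which stores the iron that heme oxygenase frees, gave no common value. Fth1, the heavy chain, was at -0.13 ± 0.33 (SD, n = 3 pairs) and Ftl1, the light chain, at 0.087 ± 0.11 over 6 clones, which ranged from -0.0078 to 0.22. Tfrc, the transferrin receptor, was at -0.088 ± 0.16 and Slc40a1, the iron exporter ferroportin, at 0.038 ± 0.47, with -0.31, -0.15 and 0.57 in pairs 1 to 3. Cp, the ferroxidase ceruloplasmin, was the lowest at -0.26 ± 0.10 and below 0 on all 4 arrays, as was Aco1, an iron-sensing aconitase, at -0.13 ± 0.13. Slc39a14, a zinc and iron importer, was at 0.22 ± 0.41, but at 0.045 without pair 1 and at 0.44 without pair 3. Trf (transferrin, -0.16), Pcbp2 (an iron chaperone, -0.068), Slc11a2 (a divalent metal transporter, -0.049), Ireb2 (an iron regulatory protein, -0.034), Ncoa4 (the ferritin autophagy receptor, -0.025) and Iscu (the iron-sulfur scaffold, 0.018) stood nearer 0.

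**Figure D3:**
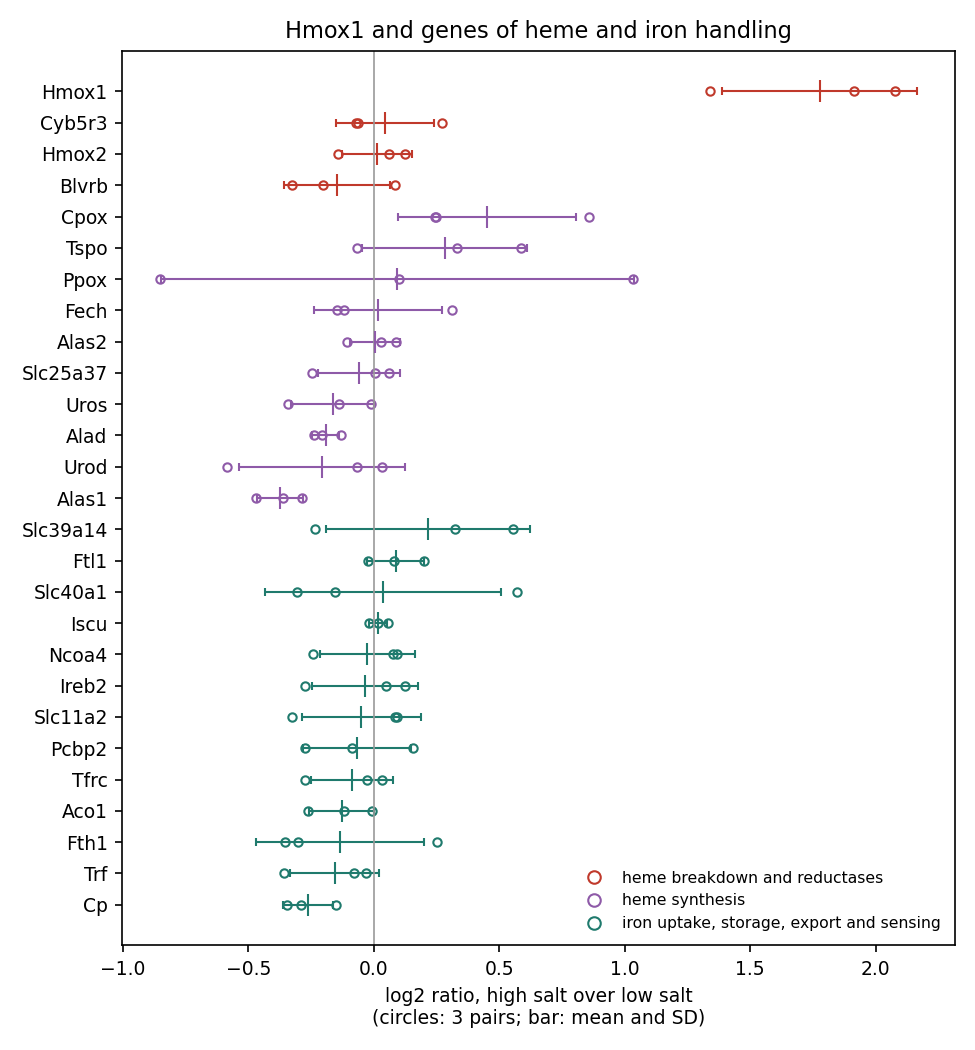
Log2 ratio of high over low salt (horizontal axis) in the 3 pairs (circles) with mean and SD for Hmox1 and the other measured genes of heme breakdown, heme synthesis and iron handling. Hmox1, at 1.78 ± 0.39, stands apart from the other genes, of which Cpox is the highest at 0.45 and Alas1 the lowest at -0.37.

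The measured regulators of Hmox1 were small beside it at the RNA level. Keap1, Maff, Mafk and Hsf1 were not measured. Nfe2l2, the activator Nrf2, was at -0.18 ± 0.13 (SD, n = 3 pairs; 4 clones) and Bach1, the repressor, at -0.033 ± 0.32, with 2 clones that both stood below 0 on arrays 1 and 2 and above 0 on arrays 3 and 4. Hif1a, the oxygen-sensitive factor that can also induce Hmox1, was at 0.23 ± 0.17 and above 0 on all 4 arrays. Flvcr1, a heme exporter, was at -0.15 ± 0.15. Of the 9 measured carriers and regulators 3 were above and 6 below 0, with a median of -0.033.

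The other measured genes that Nrf2 is known to induce were mostly small. Of 21 listed, 12 were measured. Nqo1, Gclm, Txnrd1, Srxn1, Slc7a11, G6pdx, Gsr, Osgin1 and Gstm1 were not, so the list is incomplete. Of the 12, 8 were above and 4 below 0, with a median of 0.080. On all 4 arrays 3 were above and 3 below 0 (25% each, against 7.01% and 7.75% of all genes). The metallothioneins, metal-binding proteins that also answer to zinc and glucocorticoids, were the exception. Mt2 had 1.76, 1.76, 0.29 and 0.59 on arrays 1 to 4 (mean 1.08 ± 0.74, SD, n = 3 pairs) and Mt1 1.33, 1.05, 0.58 and 0.49 (0.89 ± 0.39). Both were above 0 on all arrays, and both were higher with high salt in Cy3 than in Cy5. Prdx1, a peroxiredoxin, followed at 0.17 ± 0.17. Without pair 1 the list's median was -0.045, with 5 of 12 above 0.

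None of the measured relatives and partners of Lcn2 came near it in size. Of 17 listed genes, the receptor Slc22a17 and the lipocalins Apod, Ptgds, Orm1 and Ambp were among those not measured. Of 7 other lipocalins, fatty acid-binding proteins, receptors and partners that were measured, 4 were above and 3 below 0, with a median of 0.011. Fabp4, a fatty acid carrier of adipocytes and capillary endothelium, was at 0.37 ± 0.075 (SD, n = 3 pairs). Lrp2, the receptor megalin, which takes up Lcn2, was at -0.065 ± 0.13 over 4 clones. Mmp9, the gelatinase that Lcn2 binds, had -0.17, -0.22, 0.026 and 1.12 on arrays 1 to 4, so that arrays 2 and 4 disagreed on the same mice, and its mean was 0.10 ± 0.32.

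Genes of NF-kappaB, C/EBP and acute-phase signalling lay on the other side of 0 from Lcn2. Of 15 measured, 2 were above and 13 below 0, with a median of -0.36, and 8 were below 0 on all 4 arrays, 53.3% against the background of 7.75%. At an unadjusted p under 0.05, 7 were lower, and none passed the adjusted threshold. Ccl2, a monocyte chemokine, had -2.93, -0.91, -1.19 and -0.78 on arrays 1 to 4, a mean of -1.66 ± 1.12 (SD, n = 3 pairs). Socs3, a feedback inhibitor of cytokine signalling, had -1.06, -0.31 and -1.62 in pairs 1 to 3. Nfkbia, the NF-kappaB inhibitor and target, was at -0.72 ± 0.52, or -0.43 without pair 1, and Nfkbiz, the IkappaB zeta cofactor needed for Lcn2 induction, at -0.68 ± 0.86, the last carried by pair 1 at -1.65 against -0.033 and -0.35 in pairs 2 and 3. The list was nearest 0 in pair 2, in which Lcn2 was highest. Its medians were -0.48 and -0.37 on arrays 1 and 3, and -0.18 and -0.12 on arrays 2 and 4. Without pair 1 the median was -0.23, with 13 of 15 below 0. With arrays 1 and 2 turned, 10 of the 15 were above 0 and the median was 0.049, so this contrast with Lcn2 depends on the reading of the table.

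Corticosteroid receptors and targets differed among themselves. Of 9 measured, 6 were above and 3 below 0, with a median of 0.094. On all 4 arrays 4 were above 0 (44.4%, against 7.01% of all genes) and 2 below (22.2%, against 7.75%). Fkbp5 had 2.05, 1.36, 1.12 and 0.87 on arrays 1 to 4, a mean of 1.43 ± 0.54 (SD, n = 3 pairs), and was the listed gene closest in size to the members. Klf9, a steroid-induced transcription factor, was at 0.71 ± 0.47, or 0.43 without pair 1. Sgk1, the kinase that mineralocorticoids induce in kidney, was at 0.47 ± 0.65, with -0.18, 0.47 and 1.13 in pairs 1 to 3, an order between pairs that neither Hmox1 nor Lcn2 followed. Nr3c2, the mineralocorticoid receptor itself, was at 0.027 ± 0.042. Adamts1, a matrix protease, was the lowest at -0.61 ± 0.45, or -0.37 without pair 1.

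Genes of tissue injury gave no common direction, with 6 of 10 above 0 and a median of 0.034. Atf3, a stress-induced transcription factor, was at -1.14 ± 0.49 (SD, n = 3 pairs) and below 0 on all 4 arrays. Cdkn1a, a cell cycle inhibitor, was at 0.63 ± 0.71 with 1.19, 0.88 and -0.17 in pairs 1 to 3. On arrays 2 and 4, which held the same mice, it stood at 1.46 and 0.29. Its values thus also differed with the dye orientation. Plaur, the urokinase receptor, was at -0.48 ± 0.85, a value carried by pair 3 at -1.43, and without that pair it stood at -0.0023.

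**Figure D4:**
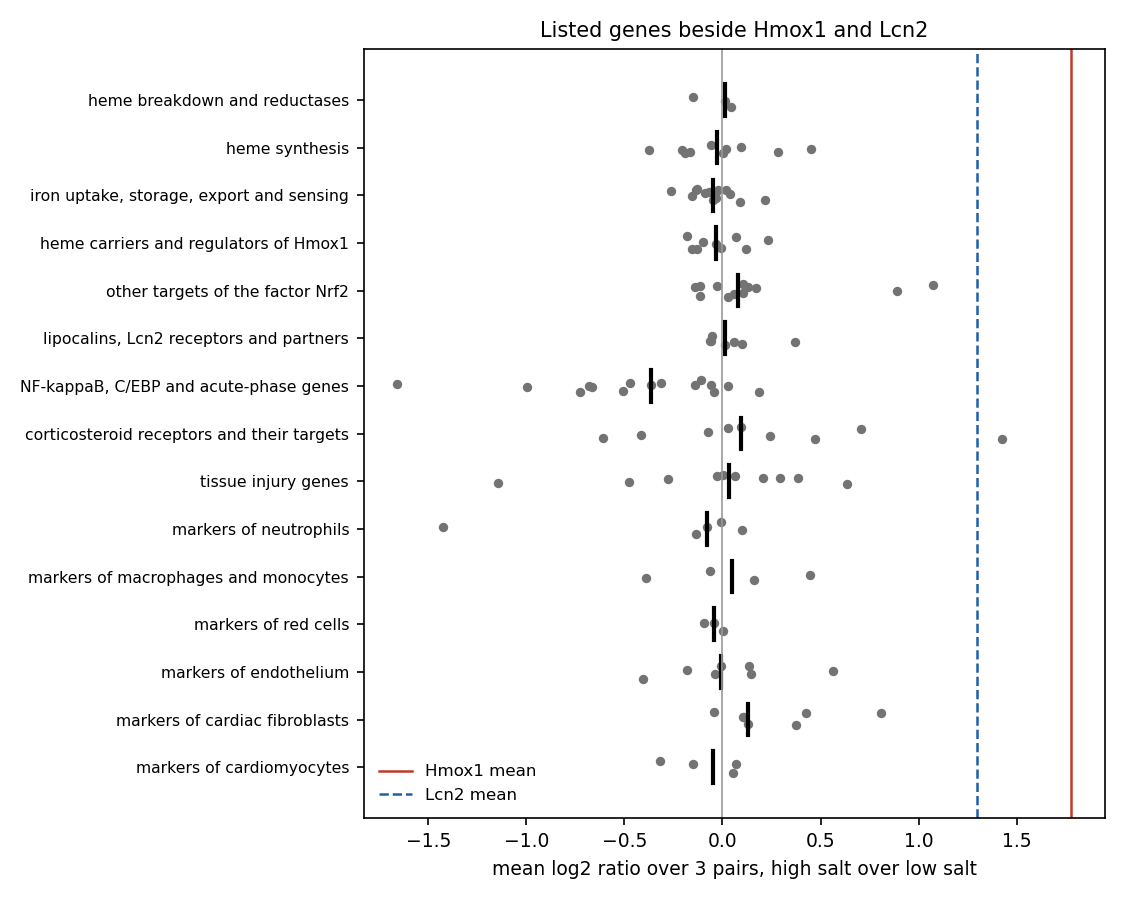
Mean log2 ratio over 3 pairs, high over low salt (horizontal axis), of the measured genes of 15 lists (dots; black bars are list medians), with the means of Hmox1 (solid line, 1.78) and Lcn2 (dashed line, 1.30). Most listed genes lie near 0, Fkbp5 at 1.43 is the listed gene to the right of Lcn2, and the NF-kappaB list lies left of 0 with a median of -0.36.

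Markers of cells that could carry these transcripts into the tissue were examined beside them. Of 15 neutrophil markers 5 were measured, 1 above 0 (Mmp9, also a binding partner above) and 4 below, with a median of -0.077, and defining granule genes such as Elane and Mpo were not measured. S100a9, an abundant neutrophil protein, had -1.14, -1.31, -1.94 and -1.07 on arrays 1 to 4, a mean of -1.42 ± 0.45 (SD, n = 3 pairs), on the opposite side of 0 from Lcn2 on every array. Csf3r, the neutrophil growth factor receptor, was at -0.13 ± 0.075. Of 17 macrophage and monocyte markers 4 were measured, with Lyz2, lysozyme, at 0.45 ± 0.38 (0.24 without pair 3), Fcgr3, an Fc receptor, at 0.16 ± 0.20 and Cd14, a lipopolysaccharide co-receptor, at -0.39 ± 0.29 (-0.24 without pair 1). Cd68 and Cd163 were not measured. The part of these cells in the 2 members was not tested.

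Red cells, whose heme induces Hmox1, were represented by 3 of 13 markers with a median of -0.044, among them Hba-x, an embryonic globin, at -0.092 ± 0.17 (SD, n = 3 pairs) and Slc4a1, the band 3 anion exchanger, at -0.044 ± 0.034. The adult globins were not measured. Of 7 endothelial markers 3 were above 0, with a median of -0.0064. Cdh5, VE-cadherin, had 1.47, 2.42, -0.81 and -0.36 on arrays 1 to 4, a split by dye orientation as in Ppox, and a mean of 0.57 ± 1.21. Its 2 clones stood at 0.93 and 0.20, and the mean was 0.11 without pair 1 and 1.25 without pair 3. Cldn5, a tight junction claudin, was at -0.40 ± 0.52, or -0.15 without pair 3, and Emcn, a sialomucin, at -0.18 ± 0.35. Fibroblast markers were above 0 in 6 of 7, with a median of 0.13, led by Vim (vimentin, 0.81 ± 0.21), Fstl1 (a secreted glycoprotein, 0.43 ± 0.14) and Lum (lumican, 0.37 ± 0.29). The 2 clones of Fstl1 were unlike, at 0.046 and 0.81, as were those of Lum, at 0.58 and 0.16, and Lum was at 0.21 without pair 3. The 2 clones of Vim, at 0.70 and 0.92, differed in opposite ways with dye orientation. The first had 0.33, 0.38, 1.09 and 0.98 on arrays 1 to 4, the other 1.67, 1.27, 0.079 and 0.74. Of 4 cardiomyocyte markers 2 were above and 2 below 0. Ttn, the giant sarcomere protein, was at 0.067 ± 0.046, Atp2a2, the calcium pump SERCA2, at -0.15 ± 0.21. Nkx2-5, which encodes a homeobox factor of the heart, had a mean of -0.32 ± 0.17. Most fibroblast markers thus lay on the same side of 0 as Hmox1 and Lcn2, and their part in the result was not tested.

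Every list was also read with arrays 1 and 2 turned. The median then had the other sign for iron handling (0.10, 8 of 13 genes above 0), heme carriers and regulators (0.15, 7 of 9), other Nrf2 targets (-0.058, 5 of 12), tissue injury (-0.21, 3 of 10) and cardiomyocyte markers (0.025, 2 of 4), besides the NF-kappaB list. It kept its sign for the other 9 lists, though fibroblast markers then had a median of 0.0047 with 4 of 7 above 0. Among the genes named above, Fkbp5, Mt1, Mt2, Cp, Vim and all the collagens near the members changed sign, whereas Alas1, S100a9, Socs3, Atf3, Hif1a and Lyz2 did not. In that order, the turned means of these last were -0.02, -0.23, -0.23, -0.21, 0.056 and 0.22, nearer 0 than before. As deposited each had 1 sign on all 4 arrays, so when turned its values split by dye orientation. No direction with salt could then be given for these genes either.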

How the data were processed

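Total RNA of ventricles was reverse transcribed with oligo(dT), labelled with Cy3 or Cy5 and hybridised to printed cDNA arrays, per the labels' protocols. For each array the table the authors deposited holds a log ratio for every feature, used here as log2 values. The sources used here do not state its base, direction, background correction or normalization. Of 17664 features 17207 had values on all 4 arrays. Left out were 736 of them, at 23 positions without a name in each of the 32 print blocks, taken as control spots, which left 16471 clones. Symbols came from the platform annotation (12563 features with 1 symbol, 412 with several, 4689 with none), and clones of 1 gene were averaged. The members and lists were chosen with earlier results of these data known.

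Ratios of 3 pairs, arrays 2 and 4 averaged, were tested against 0 across all genes by moderated statistics (limma 3.58.1 under R 4.3.3, intercept only, Benjamini-Hochberg at 0.05), and the fit was tested on simulated data. The mice were separate animals. No intensity or detection call was used, so no filter on dim spots was possible. Precision is limited by how few arrays there are. The genes described are Hmox1 and Lcn2, the 5 nearest to each, every measured gene of the 3 heme and iron lists, the 3 largest of each other list and a few fixed names, 70 genes besides the members. Alternatives were turned arrays, each array of pair 2 alone, each pair left out, scaled arrays, centred print blocks, a dye covariate, clone medians, single clones and all features. The promoter sequence is from RefSeq (GRCm38.p6).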

Additional observations from a re-analysis of the deposited data

Results flagged for a closer look

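Among the 72 genes described, 4 had 1 array far from the other 3. Chance marks about 1 in 20 such groups, arrays 2 and 4 share their mice, and neither Hmox1 nor Lcn2 was among the 4. Urod stood at -1.04 on array 2, with the other arrays between -0.14 and 0.034. Fabp4 stood at 0.11 on array 2, with the others between 0.41 and 0.46. Atp2a2 stood at -0.40 on array 1, with the others between -0.058 and -0.0092. Col1a2 stood at 0.80 on array 3, with the others between 1.13 and 1.18.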

How the results depend on the processing

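With arrays 1 and 2 turned against arrays 3 and 4, the mean log2 ratio was -0.27 for Hmox1 and -0.10 for Lcn2, with SDs of 1.72 and 1.15, and 43 of the other 70 genes described changed sign. In the other alternatives run for them the mean of Hmox1 lay between 1.63 (without pair 1) and 2.00 (without pair 3) and that of Lcn2 between 1.13 (without pair 2) and 1.41 (pair 2 from array 2 alone), and up to 8 of the 70 changed sign. No gene or clone passed the adjusted threshold by limma in any alternative. Against 441 genes at an unadjusted p under 0.05, turning gave 1683, a dye covariate 1188, and leaving out a pair between 145 (pair 2) and 851 (pair 3). Among the listed genes 39 were at that p with the dye covariate, against 23. Leaving out pair 1 or 3, or an array of pair 2, leaves the dyes unbalanced.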
